A study of Rattus norvegicus with 87 samples.

Results

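The serotonin receptor genes Htr2c, Htr2a, Htr1a and Htr1b were measured by RNA-Seq in a region of the brain, the lateral habenula (LHb), in Heterogeneous Stock (HS) rats. They were chosen by name, as the rows ENSRNOG00000030877 (Htr2c), ENSRNOG00000010063 (Htr2a), ENSRNOG00000010254 (Htr1a) and ENSRNOG00000013042 (Htr1b) of a table of 17512 genes, and all 4 were present. The table listed Ensembl identifiers without symbols, so the symbols are those given with the choice of the 4 rows. The study sequenced polyadenylated RNA from several brain regions of HS rats to relate expression to genotype, and the LHb is the region examined here. HS rats are outbred descendants of inbred founder strains, and every rat belonged to this population. All were group-housed and had received no behavioural testing and no drug, so there was no treated group, and the ages of single rats are not given in the labels. The LHb was dissected by hand from frozen sections, with both sides of a rat pooled into a single sample, so neighbouring tissue may be included. Of 87 samples, 81 were in the table, from 41 males and 40 females. By rat batch, a label of the samples, the males numbered 11, 10, 12 and 8 in batches 2, 3, 4 and 6. The females numbered 4, 12, 15 and 8 in the same batches, and 1 more was the only rat of batch 5. The labels state sex and rat batch as the differences between rats, and the comparisons are by sex, by batch and among the receptors themselves.

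Serotonin receptors are membrane proteins that pass a serotonin signal to the inside of a cell. Htr2a and Htr2c encode receptors that couple to Gq proteins, activate phospholipase C and as a rule excite the cell, whereas Htr1a and Htr1b encode receptors that couple to Gi/o proteins, lower cyclic AMP and as a rule inhibit the cell or its transmitter release. Htr1a is known both on the cell bodies of serotonin neurons and on their target neurons, and Htr1b largely on axon terminals. The LHb is a nucleus of the epithalamus whose mostly glutamatergic neurons act on midbrain dopamine and serotonin neurons and receive serotonin fibres in return. Htr2c is also known for very high levels in the choroid plexus, which lies close to the habenula. Markers of the LHb, of the choroid plexus and of other neighbouring tissue could not be assigned to rows of the table, so the labelled region was not checked against them and their part in the values was not tested. In bulk tissue, fewer cells with a receptor and less of its RNA per cell cannot be told apart.

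Promoter sequence was held for 2 of the 4 receptors, Htr2c and Htr1b, in RefSeq for the GRCr8 build. That build is later than Rnor_6.0, the build named in the submitters' processing notes. Both sequences are shown because they were the ones held, and no relation between sequence and expression was tested. Each line gives the 250 bases before the annotated start of the gene, 5′ to 3′ on the strand of the gene. Capitals mark matches to the CCAAT box, a common promoter element, here all on the opposite strand and therefore read as ATTGG.

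Htr2c, chrX:115452940-115453189, plus strand: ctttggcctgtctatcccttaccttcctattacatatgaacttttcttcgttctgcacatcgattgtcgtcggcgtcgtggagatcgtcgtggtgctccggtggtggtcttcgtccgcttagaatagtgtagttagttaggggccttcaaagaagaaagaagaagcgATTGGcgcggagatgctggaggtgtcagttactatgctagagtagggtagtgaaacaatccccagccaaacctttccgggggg
Htr1b, chr8:91414816-91415065, minus strand: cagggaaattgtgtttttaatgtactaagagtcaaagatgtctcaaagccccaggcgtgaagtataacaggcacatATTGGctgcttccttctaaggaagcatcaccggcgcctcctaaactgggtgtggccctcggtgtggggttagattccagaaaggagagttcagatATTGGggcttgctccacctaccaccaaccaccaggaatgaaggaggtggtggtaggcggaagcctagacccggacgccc

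The Htr2c window held 15 CpG dinucleotides against a median of 5 over 33469 rat promoter windows of the same length, and the Htr1b window held 7. Their GC contents were 50.4% and 52.4%, near the median of 51.2%. The single CCAAT match of Htr2c ran from 83 to 79 bases before the start. Htr1b had 2 matches, from 174 to 170 and from 79 to 75 bases before the start, and 34% of all windows held at least 1 match to CCAAT. Both strands were also searched for TATAAA (a core promoter element, in 12.9% of all windows), GGGCGG (GC box, 30.5%), CACGTG (E-box, 5.59%), TGACGTCA (cAMP response element, 1.59%), TGANTCA (AP-1 site, 6.34%) and GCGNGGGCG (EGR site, 4.29%), and neither window held any of these.

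The deposited value of a gene in a rat is log2(normalized count + 1), where the normalized count is the estimated read count scaled to a common upper quartile across libraries. The scaled totals lay between 16.2 and 20.2 M normalized counts per rat (M, 1000000). The total before scaling, estimated from the pattern of low whole numbers, was resolved for 63 rats, with a median of 18.5 M and a range from 5.74 to 50.5 M, and the depth of the other 18 is unknown. Of 40 simulated libraries, 37 were resolved, and 34 of these came within 1% of the true scaling. A resolved depth can therefore be wrong in some rats. Between 296 and 1661 genes were listed at 0 per rat, with a median of 540. With 2 rats that the authors had exchanged put back under their original labels, the columns also fell into 3 consecutive alphabetical runs of rat identifiers. The labels do not give the meaning of these runs. Column run 1 held all of batch 2 and 7 rats of batch 3, run 2 held 12 rats of batch 3, and run 3 held 3 rats of batch 3 with all of batches 4, 5 and 6. Levels are not compared between receptors, because transcript lengths were not used here.

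Htr2c was detected in every rat. Its lowest, median and highest normalized counts were 9206, 13218 and 21607, a range of 2.35-fold, and its log2 level was 13.70 ± 0.28 (SD, n = 81). In males the lowest, median and highest counts were 9206, 13307 and 21607, and in females 9299, 13125.5 and 20571. The 2 sexes overlapped over nearly their whole range. The lowest Htr2c count was in male rat 41 of batch 2 and the highest in male rat 40 of batch 4. At these counts the counting error is small, with an SD of 0.013 on the log2 scale over the 62 rats of the fits with an estimated depth, against 0.27 ± 0.02 (SE) between rats after sex and batch were removed.

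Htr2a, the other receptor of the Gq-coupled group, was also detected in every rat. Its lowest, median and highest counts were 75, 137 and 372, a range of 4.96-fold, and its log2 level was 7.12 ± 0.44 (SD, n = 81). Males ran from 76 over a median of 135 to 279, and females from 75 over a median of 143 to 372. The sexes overlapped, and the rat with the highest level, female rat 4 of batch 4, was followed by male rat 21 of batch 3 with 279. These 2 libraries were also rich in genes listed at 0, with 1491 and 1578 of them.

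Htr1a gave few counts. Its lowest, median and highest values were 0, 11 and 27 normalized counts, and its log2 level was 3.50 ± 0.84 (SD, n = 81). It was listed at 0 in 2 rats, both males, male rat 16 of batch 4 and male rat 39 of batch 3. The estimated depth of the first, 11.7 M, allows up to 4.5 normalized counts where 0 are listed (3 reads, counting error only), and the depth of the second is unknown. Males ran from 0 over a median of 10 to 20, and females from 4 over a median of 12 to 27. The rats with the 3 highest counts were all females, but the sexes overlapped across most of the range. At this level a change of a few reads moves the log2 value strongly, so the Htr1a results are the least precise of the 4.

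Htr1b, the other receptor of the Gi/o-coupled group, was detected in every rat. Its lowest, median and highest counts were 50, 124 and 287, a range of 5.74-fold, and its log2 level was 6.88 ± 0.47 (SD, n = 81). Males ran from 50 over a median of 115 to 287, and females from 70 over a median of 124.5 to 264. The lowest values were again in males, in rats 39 and 10 of batch 3. The highest count was in male rat 22 of batch 6, followed by male rat 21 of batch 3 (277) and female rat 4 of batch 4 (264), the last 2 being the rats with the highest Htr2a.

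**Figure D1:**
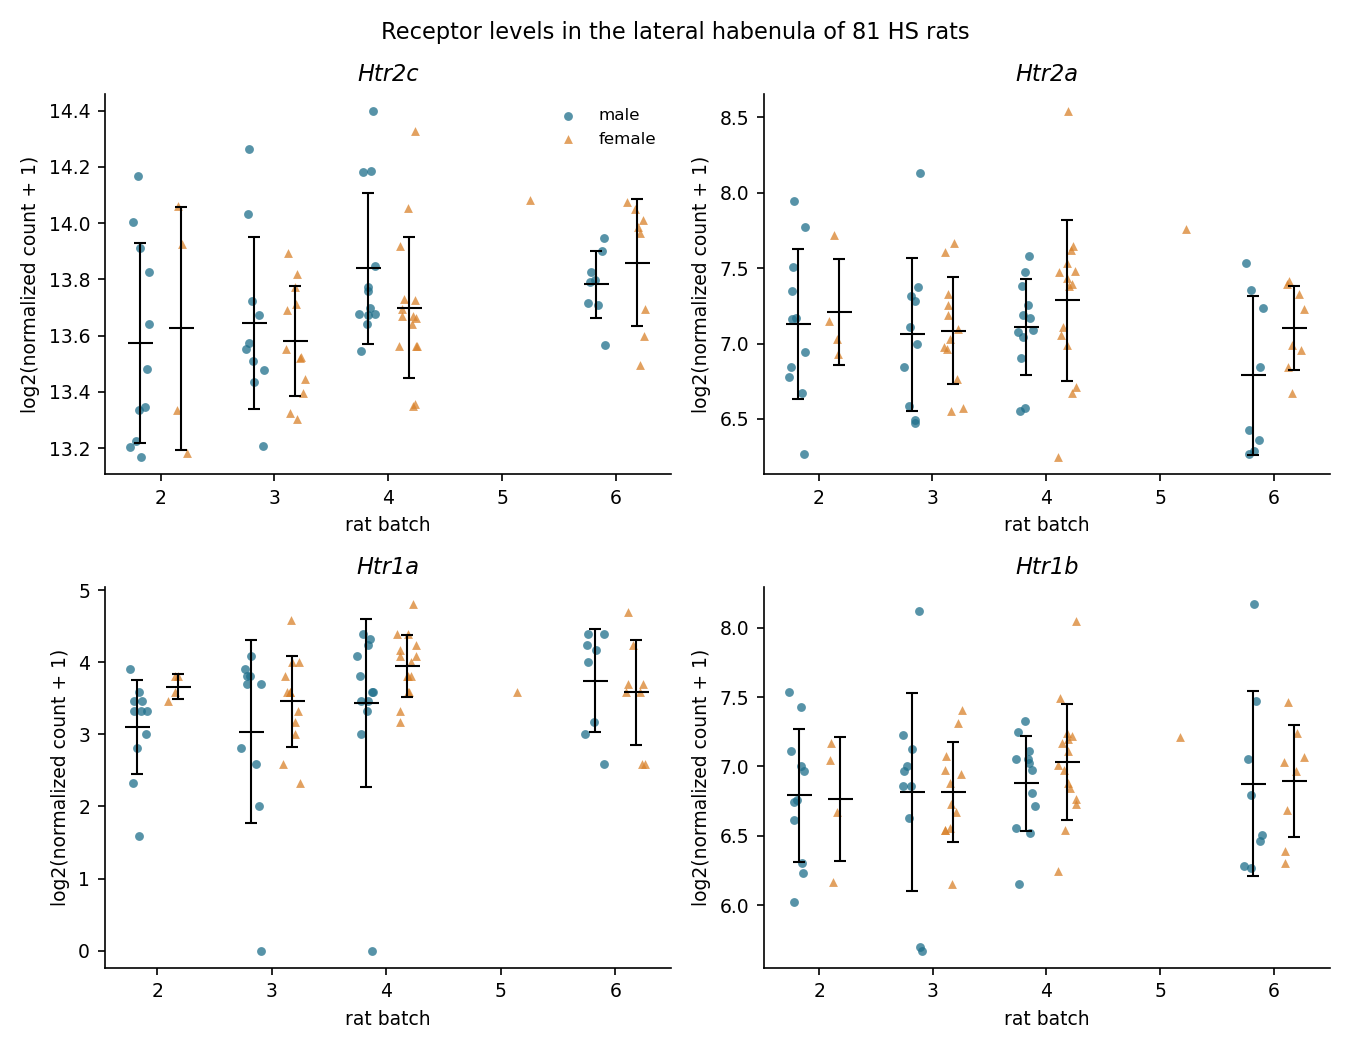
Log2(normalized count + 1) of each receptor (y axis) in each of the 81 rats by rat batch (x axis), with males as circles and females as triangles, and horizontal bars for the mean with whiskers of 1 SD in each sex and batch. The sexes overlap in every batch with both, and the 2 male points at 0 for Htr1a lie apart from the others.

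The comparison of the sexes asked whether receptor levels differed between male and female LHb. None of the 4 receptors differed between the sexes after adjustment over all genes (limma with rat batch as a covariate, two-sided, 80 rats of batches 2, 3, 4 and 6), where 0.131% of all genes did, 23 of 17512. For Htr2c, which lies on the X chromosome, the male minus female difference was 0.04 on the log2 scale (SE 0.06, 95% interval -0.08 to 0.16, limma adjusted p = 0.998). Htr2a gave -0.15 (SE 0.10, interval -0.34 to 0.05, limma adjusted p = 0.998). Htr1b gave -0.05 (SE 0.11, interval -0.27 to 0.16, limma adjusted p = 0.998).

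Htr1a had the largest difference of the 4. The log2 level was 3.31 ± 1.00 (SD, n = 41) in males and 3.69 ± 0.57 (SD, n = 40) in females. The difference was -0.35 (SE 0.18, interval -0.72 to 0.01, limma p = 0.0592, adjusted p = 0.996). Without the 2 males listed at 0, a set of rats chosen after seeing the data, it was -0.15. Within batches 2, 3 and 4 it was -0.57, -0.42 and -0.51, whereas within batch 6 it was 0.16, and no batch passed the threshold alone (limma adjusted p from 0.998 to 1). In batch 6 the Htr1a counts of males ran from 5 over a median of 16 to 20 and those of females from 5 over a median of 11.5 to 25, so the groups overlapped. Whether the sex difference changed from batch to batch was tested by the sex by batch interaction, which no receptor passed (limma F-test, adjusted p = 1.00 for each). No gene passed it, a share of 0%. An unadjusted limma p under 0.05 was found for 306 genes, 1.75% of all, fewer than that threshold gives by chance.

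The comparison of rat batches asked whether receptor levels differed between them, and the labels do not say what set the batches apart. Htr2c was the only receptor of the 4 that differed between batches 2, 3, 4 and 6 (limma F-test with sex as a covariate, F = 3.56, adjusted p = 0.0291). Of all genes, 65.3% passed the same test, and 61.5% had a smaller p than Htr2c. Htr2a (adjusted p = 0.305), Htr1a (0.223) and Htr1b (0.681) did not pass the limma test.

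The Htr2c level rose in the order of batches 2, 3, 4 and 6. In batch 2 the lowest, median and highest counts were 9206, 11433 and 18378, with a log2 level of 13.59 ± 0.36 (SD, n = 15). In batch 3 they were 9467, 12009 and 19690, with 13.61 ± 0.25 (SD, n = 22). The neighbours 2 and 3 did not differ beyond their spread, at 0.03 (SE 0.09, limma adjusted p = 0.852, 7.44% of genes called). In batch 4 the counts ran from 10431 over 13104 to 21607, with 13.76 ± 0.26 (SD, n = 27), and in batch 6 from 11547 over 14394.5 to 17249, with 13.82 ± 0.18 (SD, n = 16). The neighbours 4 and 6 did not differ beyond their spread either, at 0.06 (SE 0.08, adjusted p = 0.704, 6.04% of genes called).

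Of the 6 pairs of batches, 2 passed the threshold for Htr2c. Batch 6 was above batch 2 by 0.24 (SE 0.09, limma adjusted p = 0.0319), a comparison in which 42.4% of genes were called. It was above batch 3 by 0.21 (SE 0.09, limma adjusted p = 0.0309, 59.2% of genes called). Batch 4 stood 0.19 above batch 2 (SE 0.09, limma adjusted p = 0.0848, 33.9% of genes called) and 0.15 above batch 3 (SE 0.08, adjusted p = 0.0791, 54.9% called). On rank-based values batch 4 minus batch 2 passed as well (adjusted p = 0.0364), and with the number of genes listed at 0 as a covariate batch 4 minus batch 3 did (limma adjusted p = 0.0478). In all these pairs the batches overlapped.

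Column run moved with the Htr2c batch difference. The Htr2c log2 level was 13.62 ± 0.31 over the 22 rats of run 1 (SD), 13.52 ± 0.22 over the 12 of run 2 and 13.79 ± 0.24 over the 47 of run 3. Batches 4 and 6 lay wholly in run 3. With column run as a covariate the Htr2c batch test was no longer passed (limma adjusted p = 0.782), and batches and runs can be told apart only through the 22 rats of batch 3. In that fit batch 6 minus batch 2 was 0.12 (SE 0.20, limma adjusted p = 0.686) and batch 6 minus batch 3 was 0.010 (SE 0.16, adjusted p = 0.969). Within run 1, batch 3 minus batch 2 was 0.06 (limma adjusted p = 0.929), a comparison in which 0% of genes were called, and within run 3, batch 6 minus batch 4 was 0.06 (adjusted p = 0.646, 10% of genes called). Within batch 3, run 2 minus run 1 was -0.17 (SE 0.09, limma adjusted p = 0.186), where 23% of genes were called. Without batch 3 the Htr2c batch test gave a limma adjusted p of 0.0763, while batch 6 minus batch 2 was 0.24 and still passed (adjusted p = 0.0381). Without batch 6 the test gave a limma adjusted p of 0.0942, with batch 4 minus batch 2 at 0.20 and batch 4 minus batch 3 at 0.15, close to their values over all batches.

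The other receptors had other orders of batch means, none of them beyond the spread. Htr2a was lowest in batch 6 at 6.95 ± 0.44 (SD, n = 16), with counts from 76 over 124.5 to 184, and highest in batch 4 at 7.21 ± 0.45 (SD, n = 27), with counts from 75 over 145 to 372. The difference of batch 6 minus batch 4 was -0.25 (SE 0.14, limma adjusted p = 0.231). Htr1b ran from 6.78 ± 0.46 in batch 2 (SD, n = 15) to 6.96 ± 0.39 in batch 4 (SD, n = 27), with overlapping counts of 64 to 185 and 70 to 264. Htr1a ran from 3.25 ± 0.62 in batch 2 (SD, n = 15) to 3.72 ± 0.86 in batch 4 (SD, n = 27). Its batch test was passed on rank-based values (limma adjusted p = 0.0387), where 70% of all genes were called, and without the 2 rats listed at 0 (adjusted p = 0.0301), a set of rats chosen after seeing the data, where 64.4% were.

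**Figure D2:**
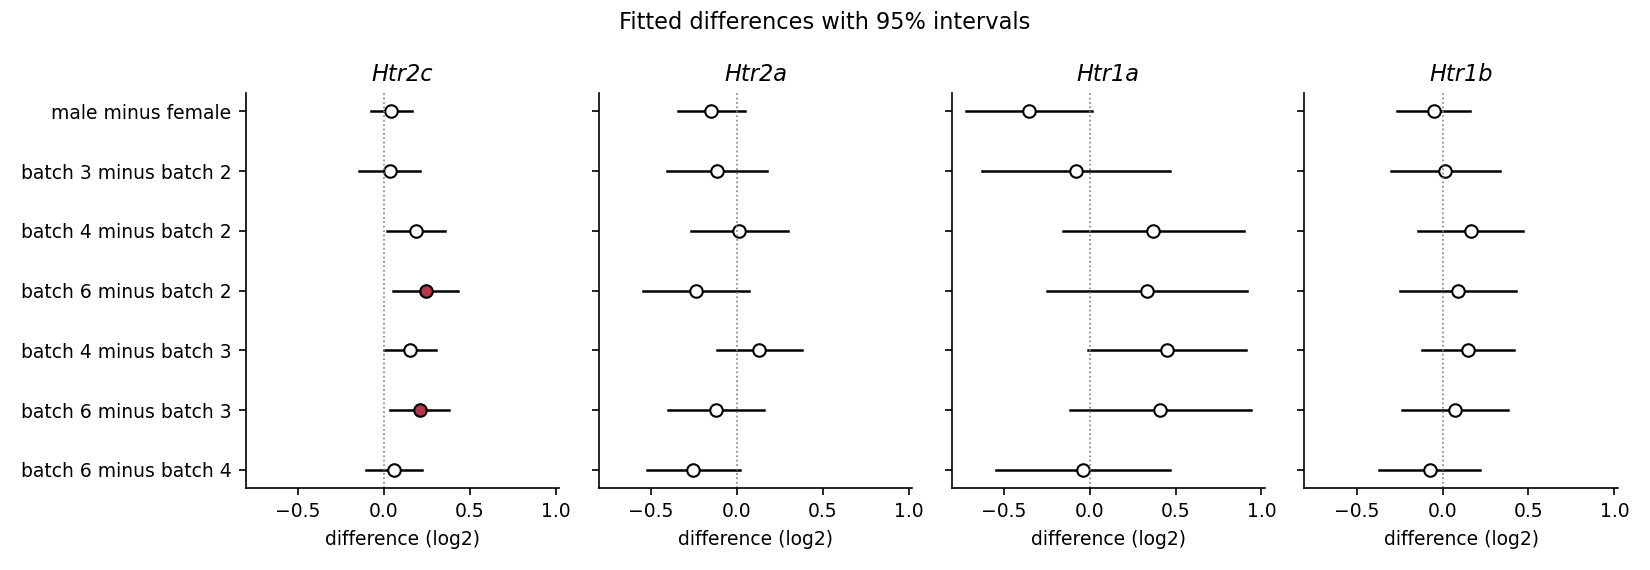
Fitted differences on the log2 scale (x axis) for each receptor, with 95% intervals as lines, for males minus females and for the 6 pairs of batches (y axis); filled points have a limma adjusted p under 0.05. Both filled points are Htr2c, for batch 6 minus batch 2 at 0.24 and batch 6 minus batch 3 at 0.21.

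Variation between rats that share sex and batch was then described by the residual SD of each receptor. For Htr2c it was 0.27 ± 0.02 (SE, 80 rats), and rats at the 90th percentile stood 1.61-fold above rats at the 10th. This SD was at the 90.8th percentile of the 131 genes within 0.5 of its mean log2 level, whose median was 0.14. For Htr2a the SD was 0.44 ± 0.04, at the 85.9th percentile of 1747 genes of like level (median 0.30). For Htr1b it was 0.48 ± 0.04, at the 86.5th percentile of 1599 genes (median 0.32). These 3 receptors therefore varied more between rats than most genes of like level.

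Counting error made up a small share of this spread for these 3 receptors, with counting SDs of 0.013 for Htr2c, 0.13 for Htr2a and 0.13 for Htr1b on the log2 scale. Htr1a had the largest SD in absolute terms, 0.81 ± 0.07, but lay at the 41.3rd percentile of the 840 genes of like level, whose median was 0.84. The Htr1a SD was 1.00 in males and 0.56 in females, and 0.60 over both sexes without the 2 males listed at 0. For Htr1b it was 0.55 in males and 0.40 in females, for Htr2a 0.46 and 0.42, and for Htr2c 0.28 and 0.25. The difference in SD between the sexes was not tested.

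**Figure D3:**
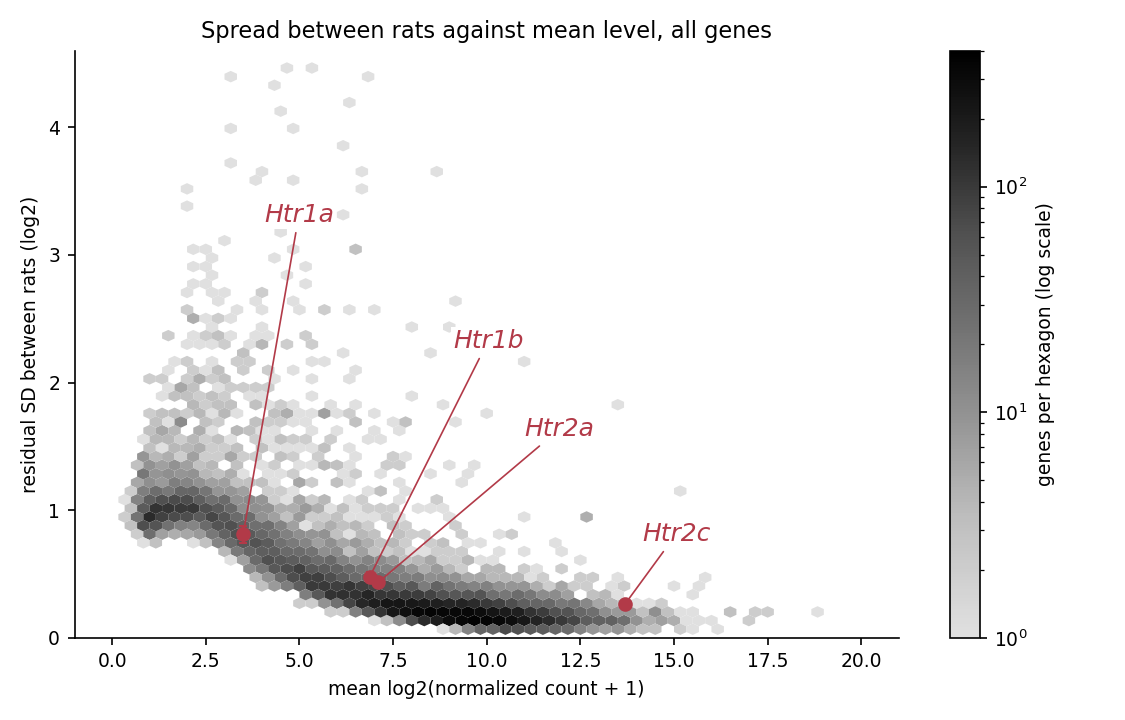
Residual SD between rats after sex and batch (y axis, log2) against the mean log2(normalized count + 1) (x axis) of all 17512 genes, as hexagons shaded by the number of genes on a log scale, with the 4 receptors as points with SE bars. Htr2c, Htr2a and Htr1b lie along the upper part of the band at their level, and Htr1a lies within it.

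The receptors were then compared with each other across rats, on deviations from the fitted sex and batch means. Htr2a and Htr1b, from different coupling groups, varied together. Pearson's r was 0.56 over 80 rats (permutation test within batch, p = 1e-05, the smallest that 100000 permutations can give, adjusted p = 6e-05 over 6 pairs), and Spearman's rho was 0.50 (permutation p = 2e-05, adjusted p = 0.00012). Of the 16 rats with the highest deviation in each gene, 10 were the same, and of the 16 with the lowest, 6 were the same. Some sharing arises by chance among 80 rats, and its size was not computed. These counts restate the deviations that gave r and are no separate test. The 2 rats farthest from the Htr2a median were female rat 4 of batch 4, with 372 Htr2a and 264 Htr1b counts, and male rat 21 of batch 3, with 279 and 277. Without them r was 0.46 (permutation, adjusted p = 6e-05).

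Within each batch r was positive, and differences between batches were not tested. Within batch 6 r was 0.85 (rho 0.84, n = 16, permutation, adjusted p = 0.00036 over the 6 pairs in that batch and 0.00144 over all pairs and batches). Within batch 4 r was 0.52 (rho 0.50, n = 27, permutation, adjusted p = 0.0407 over that batch, but 0.0543 over all pairs and batches and 0.0527 for rho). Batches 2 and 3 gave 0.53 (rho 0.36, n = 15, permutation, adjusted p = 0.256) and 0.46 (rho 0.33, n = 22, permutation, adjusted p = 0.0979), which did not pass. In batch 3, male rat 21 had the highest deviation in both genes (Htr2a 1.14, Htr1b 1.33). The r of that batch can rest largely on this rat, and r without it was not computed within the batch. By column run, r was 0.53 in run 1 (n = 22, permutation, adjusted p = 0.0872), 0.68 in run 3 (n = 46, permutation, adjusted p = 6e-05) and -0.11 in run 2 (n = 12, permutation, adjusted p = 0.739). The relation was therefore not seen within run 2, whose 12 rats are too few to show that it is absent, and the difference between runs was not tested. Over the pooled rats r was between 0.49 and 0.61 with column run, the number of genes at 0 or 20 expression components as covariates, with other size factors, and without each batch in turn.

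**Figure D4:**
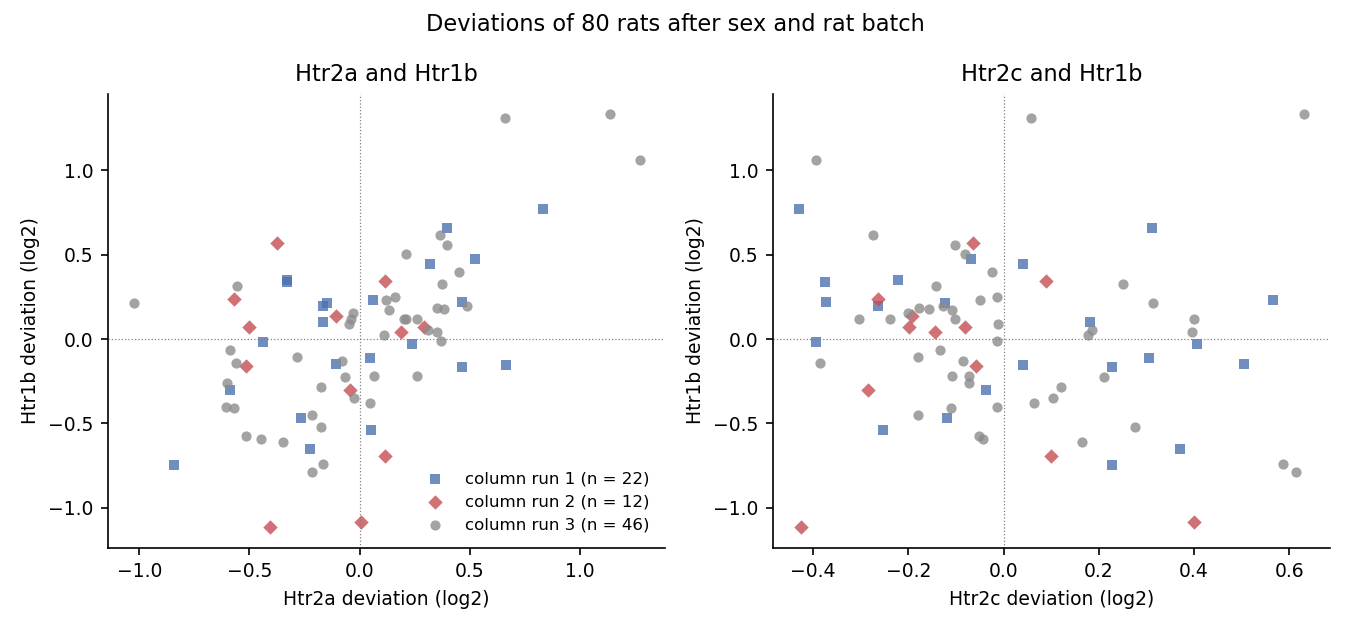
Deviations from the fitted sex and batch means (log2) in each of 80 rats, for Htr2a against Htr1b on the left and Htr2c against Htr1b on the right, with symbols for the column run. Htr2a and Htr1b rise together over all rats (r = 0.56), and Htr2c and Htr1b show no such pattern (r = -0.16). Among the 12 rats of run 2 no rise of Htr2a with Htr1b was seen (r = -0.11 after a fit within that run), but they are too few to show that it is absent.

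No other pair passed the threshold. The receptors within a coupling group were not shown to vary together. The Gq-coupled pair Htr2c and Htr2a gave r = 0.04 (rho 0.06, permutation, adjusted p = 0.846), and r = -0.03 without the 2 rats farthest from the Htr2c median. Within batch 3 alone this pair reached r = 0.56 (rho 0.37, n = 22, permutation, adjusted p = 0.0355 over that batch, but 0.0543 over all pairs and batches and 0.257 for rho), against -0.06, -0.21 and -0.13 in batches 2, 4 and 6, and without batch 3 it was -0.13. The highest batch 3 deviations in both of these genes were again those of male rat 21, and r without it was not computed within the batch. The Gi/o-coupled pair Htr1a and Htr1b gave r = 0.23 (rho 0.21, permutation, adjusted p = 0.154), and r = 0.16 without the 2 rats at 0 for Htr1a, which were the 2 farthest from its median. Within batches it was 0.29, 0.43, 0.01 and 0.14 for batches 2, 3, 4 and 6. In run 2 it was 0.71 (rho 0.72, n = 12, permutation, adjusted p = 0.031, and 0.0641 for rho), against 0.26 in run 1 and 0.04 in run 3.

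Htr2c and Htr1b gave r = -0.16 (rho -0.22, permutation, adjusted p = 0.288), and r = -0.24 without the 2 farthest rats. Within batches 2, 4 and 6 it was -0.27, -0.44 and -0.28, and within batch 3 it was 0.23. Without batch 3 it was -0.33 (permutation, adjusted p = 0.0331), and without batch 4 it was -0.05 (permutation, adjusted p = 0.828), so both its call and its size depended on the batches included. Male rat 21 of batch 3, with the third-highest Htr2c count of all rats (19690), was also the rat second-highest in Htr1b. Htr2c and Htr1a gave r = -0.10 (rho -0.09, permutation, adjusted p = 0.534; -0.06 without the 2 farthest rats), with 0.04, 0.11, -0.27 and -0.30 within batches 2, 3, 4 and 6. Htr2a and Htr1a gave r = -0.01 (rho -0.03, permutation, adjusted p = 0.943; 0.02 without the 2 farthest rats), with -0.18, 0.04, 0.12 and -0.15 within those batches.

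**Figure D5:**
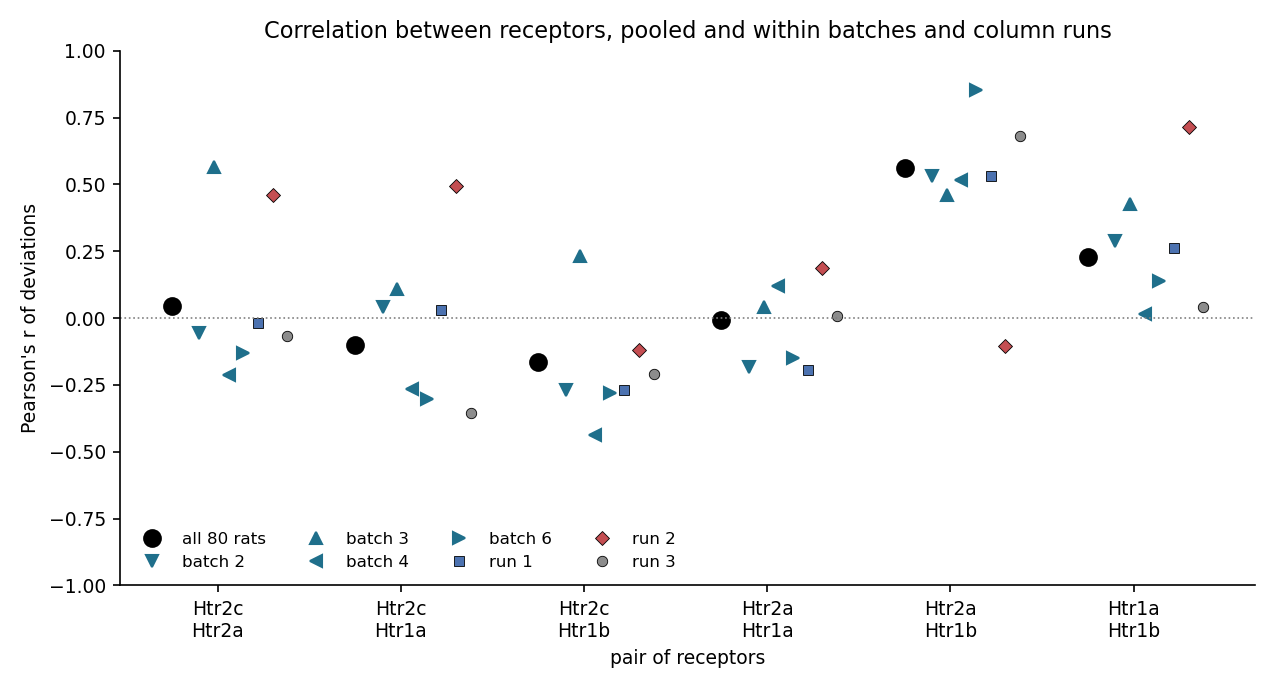
Pearson's r of deviations from the fitted sex and batch means (y axis) for the 6 pairs of receptors (x axis), over all 80 rats as large black circles, within each batch as triangles and within each column run as squares, diamonds and small circles. Htr2a and Htr1b have the highest pooled r, 0.56, and their 4 batches lie between 0.46 and 0.85.

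The number of genes listed at 0 in a library was compared with each receptor in the same way. It gave r = 0.25 with Htr2a (rho 0.07, permutation p = 0.0257, adjusted p = 0.103 over the 4 receptors, r = 0.16 without the 2 farthest rats) and r = 0.18 with Htr2c (rho 0.15, permutation, adjusted p = 0.113, 0.26 without them). Htr1a gave r = -0.22 (rho -0.13, permutation, adjusted p = 0.113, -0.27 without them) and Htr1b r = 0.02 (rho -0.12, permutation, adjusted p = 0.867, -0.01 without them). None passed after adjustment. With this number as a covariate, r between Htr2a and Htr1b was 0.57.

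The genes whose deviations were most like each receptor were then found among genes with a mean log2 level of at least 5 that were above 0 in every rat. This likeness is a description over 80 rats that share libraries and dissections. Among the 13211 genes other than Htr2a itself, Htr1b had the 5th-highest r with Htr2a, and Htr2a had the 22nd-highest with Htr1b. The gene most like Htr2a was ENSRNOG00000007110, with r = 0.59, and it was also the 5th most like Htr1b, with r = 0.65. The gene most like Htr1b was ENSRNOG00000060528, with r = 0.71. Of the 100 genes most like Htr2a and the 100 most like Htr1b, 28 were the same, 28% of each list. The number shared by chance was not computed, and the overlap follows in part from the r of 0.56 between the 2 receptors themselves.

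The gene most like Htr2c was ENSRNOG00000033528, with r = 0.63, and the 5th most like it reached 0.61. None of the 100 genes most like Htr2c was among the 100 most like any other receptor. Unrelated lists of 100 from some 13210 genes would also share few genes or none, so this does not set Htr2c apart. Htr1a had the weakest likeness, with ENSRNOG00000001492 at r = 0.54 and the 5th gene at 0.51, and its list of 100 shared 10 genes with that of Htr1b and 0 with that of Htr2a. The 2 males listed at 0 had by far the lowest Htr1a deviations, -3.53 in rat 16 and -3.08 in rat 39. Male rat 39 also had the lowest Htr1b deviation. The Htr1a list can therefore rest largely on these 2 rats, and no list without them was made. The 99th percentile of r over all these genes was 0.43 for Htr2c, 0.35 for Htr2a, 0.42 for Htr1a and 0.46 for Htr1b. The identifiers are given because the table pairs them with no symbols.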

How the data were processed

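Per the study's methods, the authors used cutadapt for trimming and RSEM with the rat transcriptome of Ensembl for estimated counts of each gene, adjusted these to the upper quartile with DESeq2 and removed poor or mismatched libraries. Their filter on low genes kept those summing to 100 reads or more and exceeding 1 read in at least 25% of samples. Tool versions are not given in the sources used here, and the submitters' processing notes name Rnor_6.0. The deposited values are log2 values of these adjusted counts after the authors added a pseudocount of 1. Raising 2 to each value and subtracting 1 gave whole numbers within a relative deviation of 4.0e-06, called normalized counts. Such log2 differences understate the change of low genes, Htr1a above all, and RSEM divides reads between similar transcripts. No receptor shared its row of values with another gene.

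All 81 value columns were matched to samples by title, and the 6 samples removed by the authors were not analysed here. Groups came from the sex and rat batch labels. Replicate numbers only name rats, and each rat gave 1 sample. Batch 5, with 1 rat, was described but left out of the fits. Column runs are stretches of the table in alphabetical order of rat identifier, with 2 rats exchanged by the authors taken under their original labels.

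Sex, batch and their interaction were tested across all 17512 genes with limma 3.58.1 in R 4.3.3 (lmFit, eBayes with trend), with Benjamini-Hochberg adjustment and a threshold of 0.05. Correlations used residuals after sex and batch and 100000 two-sided permutations within batch, adjusted over 6 pairs. Depth was estimated by maximum likelihood from low whole numbers and kept where it beat other values by 10 log-likelihood units. The named genes were the 4 receptors and the 5 genes most like each by r. Of these 5, identifiers are given for the first only. The scripts ran in Python 3.11.15 (scipy 1.17.1, numpy 2.4.6, matplotlib 3.10.9, pandas 2.3.3) and were tested on simulated data. Alternatives were other scales, size factors, filters, covariates and sets of rats.

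The members, lists and tests were chosen with earlier results of these data known. The lists of other serotonin genes and of cell type markers were not used here, since identifiers could be given symbols for the 4 receptors only. Promoter windows come from RefSeq (GRCr8), which matched 2 receptors by symbol.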

Additional observations from a re-analysis of the deposited data

Results flagged for a closer look

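Htr1a in male rat 39 of batch 3 was listed at 0.0 on the log2 scale, which is 0 normalized counts. The value lay apart from the other 9 males of that batch, the next lowest of which was at 2.00, or 3 normalized counts. The gap exceeded Dixon's 95% critical value for 10 samples on the log2 scale, where a few counts near 0 make a wide gap. The counts themselves were not tested. Rat 39 also had the lowest Htr1b count of all rats, 50, with 594 genes listed at 0. Outliers were looked for in the 4 groups of 4 to 10 rats of the same sex and batch, for each of the 4 receptors, which makes 16 sets. If the values are normally distributed, chance flags about 1 in 20, or 0.8 of them, and 1 was found. Larger groups were not examined, among them the males of batch 4, which hold the other rat listed at 0. The cause was not tested.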

How the results depend on the processing

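No paired analysis was possible because a replicate number is nothing more than the name of a rat. Of 358 values under alternatives, 316 were counted as unchanged, and the cause of the changed ones was not tested. For tests this meant the same side of the threshold and, where a result has a direction, the same direction. Numbers of genes had to stay within a set fold, residual SDs within their SE and levels within the SD between rats. The last is a wide margin, and many tests passed in no fit, so the tally does not measure robustness. The 20 expression components were taken from these same values with sex and batch left in. They can carry both, so sex and batch differences that fall or reverse with them cannot be judged from those fits. The SE of the Htr2c sex difference was 0.24 with them and 0.06 in the main fit. The Htr2c batch difference lost significance, with an adjusted p of 0.782 with column run, 0.596 with 20 expression components, 0.0763 without batch 3 and 0.0942 without batch 6, although in the last 2 fits the pairwise differences were close to their values over all batches. With column run, batch 6 minus batch 2 fell to 0.12 and batch 6 minus batch 3 to 0.010. The Htr1a batch difference gained it on rank-based values (adjusted p 0.0387) and without the 2 rats at 0 (0.0301, chosen after seeing the data). The sex difference reversed with 20 components for Htr2c (-0.10) and Htr1b (0.41), and without batch 4 for Htr2c (-0.0089) and Htr1b (0.0012), never past the threshold. For Htr2c, batch 3 minus batch 2 was -0.022 with the number of genes at 0, and batch 4 minus batch 3 was -0.047 with column run.

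With 20 components, which can themselves carry sex and batch, the number of genes called fell to 7 by sex and 20 by batch. With column run it fell to 6180 by batch. With a pseudocount of 8 the interaction called 1 gene. The r of Htr2c and Htr2a was -0.010 with column run, -0.0018 with the number of genes at 0, -0.032 without the 2 farthest rats and -0.13 without batch 3. Htr2c and Htr1a gave 0.062 with 20 components, and Htr2c and Htr1b passed at -0.33 without batch 3. Htr2a and Htr1a gave 0.051 with the number of genes at 0, 0.017 without the 2 farthest rats, 0.021 without batch 2 and 0.039 without batch 6. Htr2a and Htr1b did not pass alone in batch 2 (0.53), batch 3 (0.46) or run 1 (0.53), and gave -0.11 in run 2. The within-run values were added after seeing the data. With 20 components the residual SD fell for all 4 receptors, to 0.20 for Htr2c, 0.38 for Htr2a, 0.55 for Htr1a and 0.32 for Htr1b. That of Htr1a was 0.40 with a pseudocount of 8 and 0.60 without the 2 rats at 0. For Htr2c it was 0.24 without batch 2, and for Htr1b 0.52 without batch 4. Covariates or correlations from marker lists were not run, since the lists could not be matched to identifiers, and the low counts of Htr1a limit its precision.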

Other observations

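The single rat of batch 5, a female that entered no fit, had 17363 normalized counts of Htr2c, 216 of Htr2a, 11 of Htr1a and 147 of Htr1b. Male rat 41 of batch 2 had the lowest Htr2c level of all rats, 13.17 on the log2 scale, together with the third-highest Htr2a level (7.94) and an Htr1b level of 7.54. Female rat 35 of batch 4 had the lowest Htr2a count, 75, with an Htr1b level of 7.20.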
